A study of Homo sapiens with 12 samples.

Results

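The replication-dependent histone genes encode the linker histone H1 and the core histones H2A, H2B, H3 and H4 that package newly copied DNA. They were followed here in AsPC-1 cells, a human pancreatic ductal adenocarcinoma line, after BACH1, a heme-binding transcriptional repressor, was lowered in 2 ways. Members were chosen by name alone: a gene belonged if its current symbol was H1-1 to H1-5, or H2AC, H2BC, H3C or H4C followed by a number. Of 57820 gene identifiers in the count tables, 32 met the rule, with 5 H1, 8 H2A, 10 H2B, 5 H3 and 4 H4 genes. A further 36 current symbols of that form have an identifier that the tables did not hold and were not analysed here.

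These genes are transcribed mainly in S phase, in step with DNA synthesis, and most lie in clusters that gather in the histone locus body, where the coactivator NPAT works. Their messages usually end in a conserved stem-loop and carry no poly(A) tail. The stem-loop binding protein SLBP and the U7 small nuclear RNP direct the cut that forms the end, and the stem-loop also governs translation and the rapid decay of the message when DNA synthesis stops. Libraries made from total RNA depleted of ribosomal RNA keep such messages.

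The 12 libraries fell into 4 groups of 3. The siBACH1 cells had received a BACH1 siRNA 24 hours before harvest, and siCont is their control. The sgBACH1 cells carried a lentiviral CRISPR vector with a guide against BACH1 and were selected with 10 μg/ml puromycin, and sgCont is their control. The labels do not say whether the guide cells were a pool or 1 clone, nor whether each replicate came from its own culture. The tests therefore weigh differences against library-to-library variation, part or all of which could be technical. Levels are CPM, the counts of a gene scaled to library size, with TMM factors computed over the 12 libraries. BACH1 itself read 24.6 to 27.5 CPM in siBACH1 against 195 to 289 in siCont, and 187 to 220 in sgBACH1 against 270 to 295 in sgCont. Library totals ran from 13099706 to 21478886 counts. All 8 ductal epithelial markers averaged 1 CPM or more, and none of the 4 acinar, 3 endocrine or 3 blood markers did. Among the 4 fibroblast markers LUM alone reached that level, with a summed level of 45.3 to 355 CPM. The siCont replicate 2 library stood apart from its group: its counts differed from those of siCont replicates 1 and 3 with a chi-square per degree of freedom of 27.3 and 31.9, against 8.09 between those other libraries. The member counts and family sums of the siRNA comparison are therefore also given without it.

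The stem-loop that SLBP binds was searched in the members' GENCODE 29 transcripts, as the feature that the rule did not use and that most defines the class. The search asked for 6 base pairs around a loop of 4 bases, with a stem starting with GG and a loop starting with TT. It was found in 15 of 32 members. It was not found in the annotated transcripts of the other 17, and only 19 of the 32 members have an annotated 3′ UTR, so this says nothing about their true ends. The same structure occurred in 81 of 19620 other protein-coding genes (0.41%), searched only in the longest protein-coding transcript of each. For the members all annotated transcripts were searched, so the shares are not like for like. In the members the stem-loop took 3 forms, shown here for some of the members whose values are described below. The stem-loop is in capitals, with 5 flanking bases on each side in the DNA alphabet.
H2BC21: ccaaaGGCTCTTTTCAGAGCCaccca
H2AC25: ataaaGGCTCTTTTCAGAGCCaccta
H2BC18: ccaaaGGCTCTTTTCAGAGCCacttc
H2BC5: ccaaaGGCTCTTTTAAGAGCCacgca
H4C16: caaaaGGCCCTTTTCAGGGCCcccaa
H4C11: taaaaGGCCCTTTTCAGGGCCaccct
The form of H2BC21 was shared by 10 members. That of H2BC5 was shared by 2 members, H2BC4 and H2BC5, and the H4 form by 3, H4C8, H4C11 and H4C16. In 6 of the 15 members the annotated transcript ran more than 1000 bases past the stem-loop, so longer messages of these genes are also annotated. H2BC21, with 1729 bases after the loop, and H2BC18, with 1479, are among them.

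Of the 32 members, 30 passed the filter on low counts in each comparison. The exceptions were H2AC1 and H2BC1, a neighbouring H2A and H2B pair known as testis histones, which had no more than 4 reads in any group. Together the members took 0.761% to 0.889% of all counts in the group means. Per kilobase of annotated exon, H1-2 was the most abundant member in all 4 groups, at 1634 ± 151 CPM per kilobase in siCont and 1643 ± 27.1 in sgCont (SD, n = 3). H1-5 came next in all 4 groups, at 1147 ± 123 and 1405 ± 108. A close series followed, in which neighbours did not differ beyond their spread in sgCont: H3C4 at 958 ± 36.6, H1-4 at 907 ± 70.5 and H2BC12 at 867 ± 95.1 CPM per kilobase. H4C3 at 773 ± 55.0 and H2AC20 at 652 ± 17.5 came after them. At the bottom stood H3C15 with 4.58 ± 0.0228, H1-1 with 4.14 ± 1.44 and H3C14 with 1.69 ± 0.281. H3C14 and H3C15 are copies of each other: 100% of their 50-base words recur in another gene, and reads that match both could not be assigned to either. The same share was 81.2% for H4C11, 80.4% for H3C13, 74.1% for H2BC12 and 62.3% for H2AC13, and the levels of these members are uncertain to that extent. The share was 30.5% for H2AC20 and 15% or less for the other 25. Levels per kilobase also depend on the annotated exon length, which was 411 bases for H3C4 but 2163 for H4C8 and 2194 for H2BC21. The exons of H3C4 overlap those of AL031777.3 on the same strand.

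In the siRNA comparison, 3 members rose in siBACH1 against siCont, none fell and 27 did not pass the test (edgeR quasi-likelihood test, Benjamini-Hochberg adjusted p below 0.05 over 14591 genes). They were H1-2, which encodes the linker histone H1.2, H2BC21, an H2B gene of the chromosome 1 cluster, and H3C13, an H3 gene of the same cluster. Over all genes tested 10.9% rose and 13.0% fell, so the members' share of 3 in 30 upward was near the background and their share downward was below it. At an unadjusted p under 0.05 the count was 4 of 30, beside 36.3% of all genes. The members' median log2 fold change was -0.042, beside 0.005 for all genes. The siBACH1 and siCont libraries did not overlap in 5 of 30 members, against 42.6% of all genes.

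H1-2 read 1360, 1321 and 1315 CPM in the siBACH1 libraries and 1094, 1115 and 937 in siCont. Every siBACH1 library lay above every siCont library, and the log2 fold change was 0.34 ± 0.08 (SE, edgeR adjusted p = 0.0147). H2BC21 read 506, 513 and 496 CPM against 416, 418 and 357, again without overlap, with a log2 fold change of 0.34 ± 0.08 (edgeR adjusted p = 0.0142). H3C13 read 70.8, 66.3 and 72.5 CPM against 62.2, 51.8 and 53.3, with a log2 fold change of 0.32 ± 0.10 (edgeR adjusted p = 0.0385). These rises were small, and each of the 3 calls was lost when any 1 siBACH1 library was left out (0 of 30 members rose then). The log2 fold changes in those 3 fits stayed at 0.32 to 0.34 for H1-2, 0.33 to 0.35 for H2BC21 and 0.29 to 0.35 for H3C13, while the genes called over the whole table went from 3481 to between 2002 and 2096. H3C13 had a log2 fold change of 0.18 (edgeR adjusted p = 0.227) and H1-2 of 0.29 (edgeR adjusted p = 0.0725) once offsets for GC content and length were added, which left H2BC21 as the 1 member called.

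The other H1 genes did not pass the test. H1-5 read 888, 912 and 859.5 CPM in siBACH1 and 877, 719 and 748 in siCont, and H1-4 read 662, 671 and 626 against 582, 638 and 539. Both pairs of groups overlapped, and the log2 fold changes were 0.18 (edgeR adjusted p = 0.162) and 0.15 (edgeR adjusted p = 0.218). H1-3 read 324, 363 and 333 CPM against 367, 364 and 343. H1-1 had few reads, with 9, 12 and 5 in siBACH1 against 12, 17 and 22 in siCont, and passed the filter through siCont only; its log2 fold change was -1.35 (edgeR adjusted p = 0.0693). Among the H4 genes, which encode 1 protein from many copies, H4C3 read 402, 409.5 and 453 CPM against 419, 489 and 372, and H4C8 read 238, 260 and 249 against 267, 296 and 257. H4C16 read 244, 239 and 245 CPM in siBACH1 and 259, 237 and 212 in siCont, with a log2 fold change of 0.04 ± 0.09. No H4 gene passed the test, and all 4 sets of values overlapped.

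**Figure D1:**
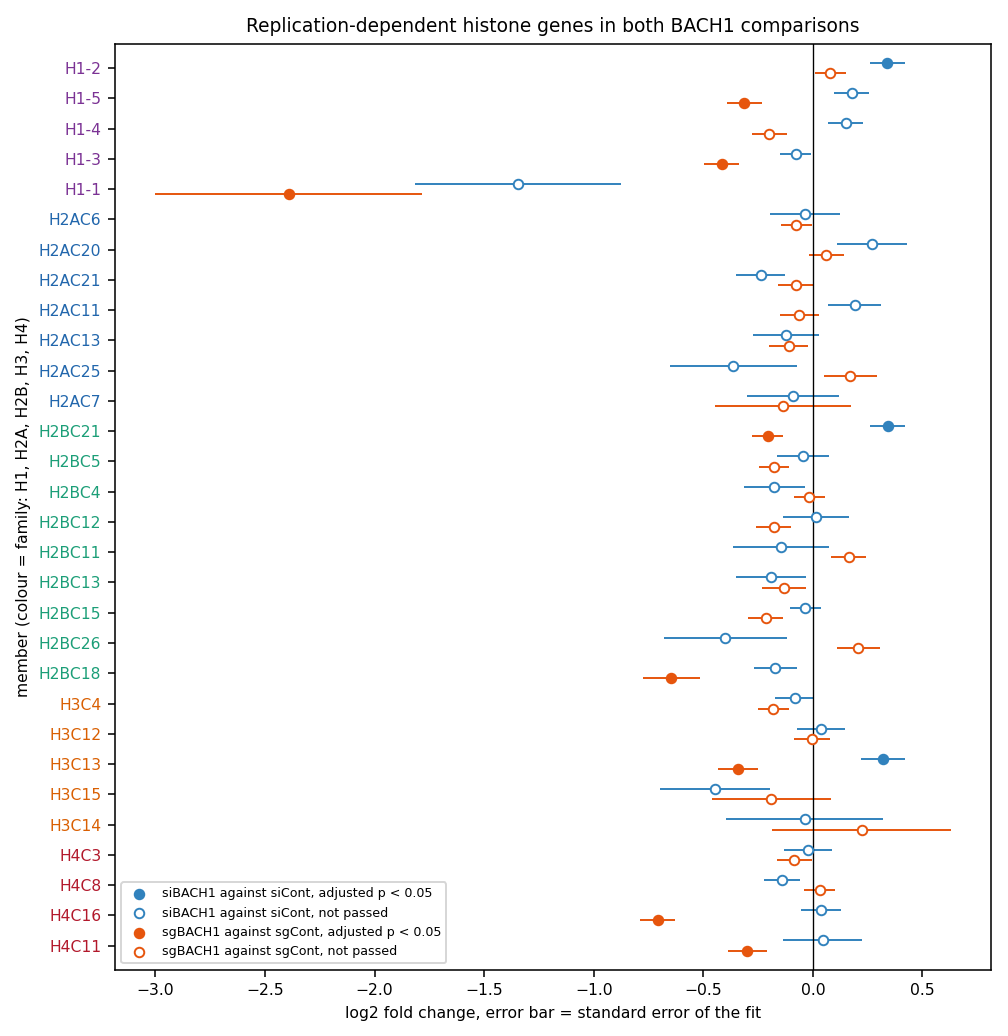
Log2 fold change of the 30 tested members (x axis) by gene (y axis, grouped and coloured by family) for siBACH1 against siCont in blue and sgBACH1 against sgCont in orange; bars are standard errors and filled points passed edgeR's test. The 3 filled blue points (H1-2, H2BC21, H3C13) lie right of 0 and the 8 filled orange points lie left of it.

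The siCont replicate 2 library was high in many H2A and H2B genes. Its level divided by the mean of the other siCont libraries had a median of 1.5 over 7 H2A genes, 1.42 over 9 H2B genes, 1.1 over the H1 genes, 1.18 over the H4 genes and 1.01 over the H3 genes, beside 0.987 for all genes. A ratio of 1.2 or more was seen in all 7 tested H2A genes and in 6 of 9 H2B genes, but in 1 H1, 2 H4 and none of the H3 genes. Over all genes the share was 24.3%. H2AC6 read 430.4, 652 and 398 CPM in siCont replicates 1, 2 and 3, against 484, 502 and 466 in siBACH1. H2AC20 read 344, 502 and 325 CPM against 449.5, 519 and 448. H2BC4 read 346, 484 and 336 CPM against 333, 372 and 332, and H2BC5 read 399, 515 and 377 against 428, 448 and 381. In each case siCont replicate 2 was the highest of its group while the other siCont libraries lay close together. H2AC21 had the same order, with 263, 310 and 244 CPM against 224, 254 and 216.

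Without siCont replicate 2, 9 members rose, 1 fell and the members' median moved to 0.095, beside 0.003 for all genes. The number of genes called over the whole table went from 3481 to 5121 of 15112 with the same change. In that fit 16.6% of all genes rose and 17.3% fell, or 33.9% together, so the share of members called, 10 of 30, was near the background, with more of them upward. The members that rose were H2AC20 (log2 fold change 0.49, edgeR adjusted p = 2.83e-06), H1-2, H2BC21, H2AC11, H3C13, H2BC12, H2BC11, H2AC6 and H1-4, whose log2 fold changes ran from 0.21 to 0.38. The 1 member that fell was H3C15, at -0.61 (edgeR adjusted p = 0.045). H2AC6 changed the sign of its estimate, from -0.03 (edgeR adjusted p = 0.907) with all libraries to 0.22 (edgeR adjusted p = 0.00513).

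**Figure D2:**
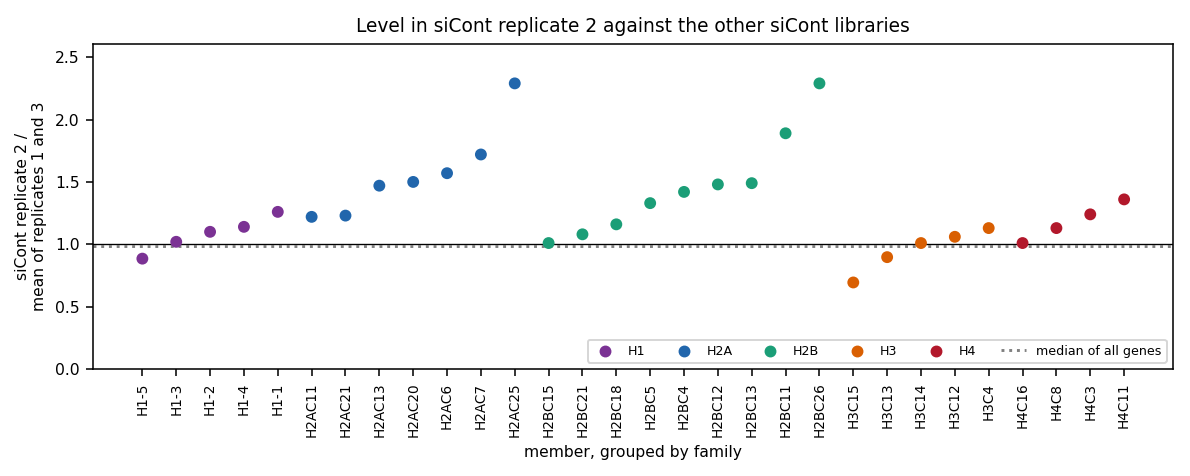
CPM in siCont replicate 2 divided by the mean of siCont replicates 1 and 3 (y axis, linear from 0) for each tested member (x axis, sorted within family); the solid line is 1 and the dotted line the median of all genes. All 7 H2A genes lie at 1.22 or above, while the H3 genes lie between 0.694 and 1.13.

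Several H2A and H2B genes lie head to head, each pair sharing the short stretch between its start sites. RefSeq starts (GRCh38.p14) gave 6 such pairs among the members, 214 to 247 bases apart. The sharpest excess in siCont replicate 2 was in 1 of them, H2AC25 and H2BC26 on chromosome 1, chosen for display after their values were seen. H2AC25 read 48.8, 103 and 40.8 CPM in siCont replicates 1, 2 and 3, and H2BC26 read 82.7, 180 and 74.1, so both genes had a ratio of 2.29. In the other 9 libraries H2AC25 lay between 45.1 and 67.5 CPM and H2BC26 between 81.7 and 116.5. The pair H2BC13 and H2AC13 had ratios of 1.49 and 1.47, and H2BC4 and H2AC6 of 1.42 and 1.57. H2BC21 and H2AC20 did not move alike in that library, with 1.08 and 1.5, nor did H2BC11 and H2AC11, with 1.89 and 1.22. To show a pair that moved alike in that library beside one that did not, the stretches between the starts of both pairs on chromosome 1 follow on the plus strand, with CCAAT and TATAA on either strand in capitals.
H2AC25 and H2BC26, chr1:228457874-228458102: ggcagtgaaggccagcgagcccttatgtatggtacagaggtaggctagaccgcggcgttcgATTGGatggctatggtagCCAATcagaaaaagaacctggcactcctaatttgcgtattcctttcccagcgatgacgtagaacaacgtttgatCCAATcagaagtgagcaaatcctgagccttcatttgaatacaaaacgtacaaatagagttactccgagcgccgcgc
H2BC21 and H2AC20, chr1:149886683-149886917: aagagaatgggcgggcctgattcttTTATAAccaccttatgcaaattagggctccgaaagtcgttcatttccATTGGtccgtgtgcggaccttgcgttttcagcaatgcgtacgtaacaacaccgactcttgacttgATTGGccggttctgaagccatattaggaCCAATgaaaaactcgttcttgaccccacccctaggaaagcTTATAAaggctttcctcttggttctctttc
Each stretch held CCAAT at 3 places. TATAA was found at 2 places between H2BC21 and H2AC20 and at none between H2AC25 and H2BC26. The other 4 pairs each held TATAA at 2 places and CCAAT at 3 or 4, those with like ratios included, so no link between these letters and that library is read. Over windows from 250 bases before to 50 after the RefSeq start, 30 members had a sequence. CCAAT, a promoter box bound by NF-Y, was in 27 of them (90%), beside 34.6% of 35116 promoters of all genes, and TATAA, the core of the TATA box, in 27 (90%) beside 20.4%. Of the overlapping words of the site that BACH1 and small MAF proteins bind, TGCTGAG was in 1 member promoter (3.3%, beside 6.7%) and TGAGTCA in none (0.0%, beside 4.9%). The promoter with TGCTGAG was that of H4C16, described below, and the part of the word in its values was not tested. These matches describe letters and not binding. Windows of the head-to-head pairs overlap, and the window used for H3C4 was the same as that of H2AC7. Shared letters were therefore counted for more than 1 member.

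In the knockout comparison, no member rose and 8 fell in sgBACH1 against sgCont, with 22 not passing (edgeR, adjusted over 14469 genes). In order of log2 fold change they were H1-1 (-2.39, at low counts), H4C16, the H4 gene that lies alone on chromosome 12 (-0.71), H2BC18 (-0.65), the linker histone H1-3 (-0.42), H3C13 (-0.34), the linker histone H1-5 (-0.31), H4C11 (-0.30) and H2BC21 (-0.21). Over all genes 11.3% rose and 12.3% fell. At an unadjusted p under 0.05 the count was 15 of 30 members, beside 33.3% of all genes, and 23 of 30 had a log2 fold change below 0, beside 49.4% of all genes. The members' median was -0.135, beside 0.006 for all genes. H1-1 passed the filter through sgCont only, with 42, 53 and 34 reads there and 6, 8 and 13 in sgBACH1, so it had to differ to be tested at all, and without it the count is 7 of 29. Groups did not overlap in 10 of 30 members (9 lower and 1 higher in sgBACH1), against 36.5% of all genes in either direction. In bulk RNA, fewer cells in S phase and less histone RNA per cell cannot be told apart.

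H4C16 (chr12:14767999-14771131, minus strand, GENCODE 29 on GRCh38) read 126, 148 and 130.2 CPM in sgBACH1 and 230.2, 207 and 225 in sgCont. The lowest sgCont library was well above the highest sgBACH1 library, and the log2 fold change was -0.71 ± 0.08 (SE, edgeR adjusted p = 3.8e-07). The sgCont, siBACH1 and siCont groups were at 221 ± 12.2, 243 ± 3.15 and 236 ± 23.4 CPM (SD, n = 3), and sgBACH1 was at 135 ± 11.7. The siRNA groups belong to another experiment that shares no control libraries, so they do not show which guide group moved. Within 5 Mb of H4C16, 50 other genes were tested in the knockout comparison. Of these 5 rose and 5 fell, with a median of 0.03.

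H2BC18 (chr1:149782689-149812373, minus strand) read 33.2, 39.6 and 30.3 CPM in sgBACH1 and 52.0, 50.5 and 59.0 in sgCont. Its log2 fold change was -0.65 ± 0.13 (edgeR adjusted p = 0.000417). Its annotated exons overlap FCGR1A on the opposite strand, and without a stated strand setting reads of the genes cannot be told apart. The sgBACH1 group at 34.4 ± 4.75 CPM lay close to siCont at 34.0 ± 2.95 and siBACH1 at 30.3 ± 1.26, and sgCont was at 53.8 ± 4.55. Here too the siRNA groups do not show which guide group moved.

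H1-3 read 274, 302 and 244 CPM in sgBACH1 and 379, 362 and 353 in sgCont, a log2 fold change of -0.42 ± 0.08 (edgeR adjusted p = 0.000239). H1-5 read 673, 844 and 793 CPM against 974, 876 and 1021, a log2 fold change of -0.31 ± 0.08 (edgeR adjusted p = 0.00414). H1-2, the most abundant linker histone, did not follow: it read 1049, 1215 and 1080 CPM against 1070, 1060 and 1036, with a log2 fold change of 0.08 (edgeR adjusted p = 0.443). H1-4 lay between, at 506, 654 and 628 CPM against 673, 637 and 742 (log2 fold change -0.20, edgeR adjusted p = 0.0907). Among these linker histones H1-3 and H1-5 were called, and H1-2 and H1-4 were not. Whether these genes differed from each other was not tested.

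H3C13 read 63.7, 73.9 and 71.8 CPM in sgBACH1 and 88.2, 87.9 and 89.5 in sgCont, a log2 fold change of -0.34 ± 0.09 (edgeR adjusted p = 0.00973). H4C11, of which a near copy exists, read 114, 140.3 and 132 CPM against 168, 155 and 152 (log2 fold change -0.30, edgeR adjusted p = 0.013). H2BC21 read 416, 438 and 419 CPM against 477, 448 and 543, a log2 fold change of -0.21 ± 0.07 (edgeR adjusted p = 0.0445). The H2BC21 call was lost under 8 of 16 alternative settings, that of H4C11 under 3, and those of H1-5 and H3C13 under 1, the fit without sgBACH1 replicate 1. The calls of H4C16, H2BC18 and H1-3 held under all 16. Without sgBACH1 replicate 1, 4 members fell, and without sgCont replicate 2, 12 did. With offsets for GC content and exon length 14 members fell. The genes called over the whole table, in either direction, numbered 3407 in the main fit. They numbered 2500 without sgBACH1 replicate 1, 3586 without sgCont replicate 2 and 3527 with the offsets. The members' exons had a median GC content of 57.3%, beside 48.5% over all genes, and a median exon length of 764 bases, beside 4474.

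No H2A gene passed the test in the knockout. H2AC6 read 393, 396 and 369 CPM in sgBACH1 and 383, 399 and 439 in sgCont. H2AC20 read 269, 287 and 240.1 CPM against 255, 247 and 260.3, and H2AC21 read 254, 229 and 202 against 231, 239 and 253. All of these overlapped. Among the H2B genes H2BC5 (418, 391 and 370.0 CPM against 474, 407 and 455) and H2BC4 (349, 351 and 306 against 346, 342 and 330) also overlapped. H2BC11 was the 1 member whose sgBACH1 libraries all lay above sgCont, at 231, 211 and 198 CPM against 195, 182 and 195, and it did not pass the test (log2 fold change 0.16, edgeR adjusted p = 0.143). H3C4 lay lower in every sgBACH1 library, at 372, 352 and 317 CPM against 384, 386 and 411, without passing (log2 fold change -0.18, edgeR adjusted p = 0.0788). H3C12 read 182, 184 and 178 CPM against 177, 177 and 192. H4C3 and H4C8, at 317 ± 20.6 and 226 ± 4.76 CPM in sgBACH1 against 336 ± 23.9 and 221 ± 12.2, each overlapped, unlike H4C16.

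**Figure D3:**
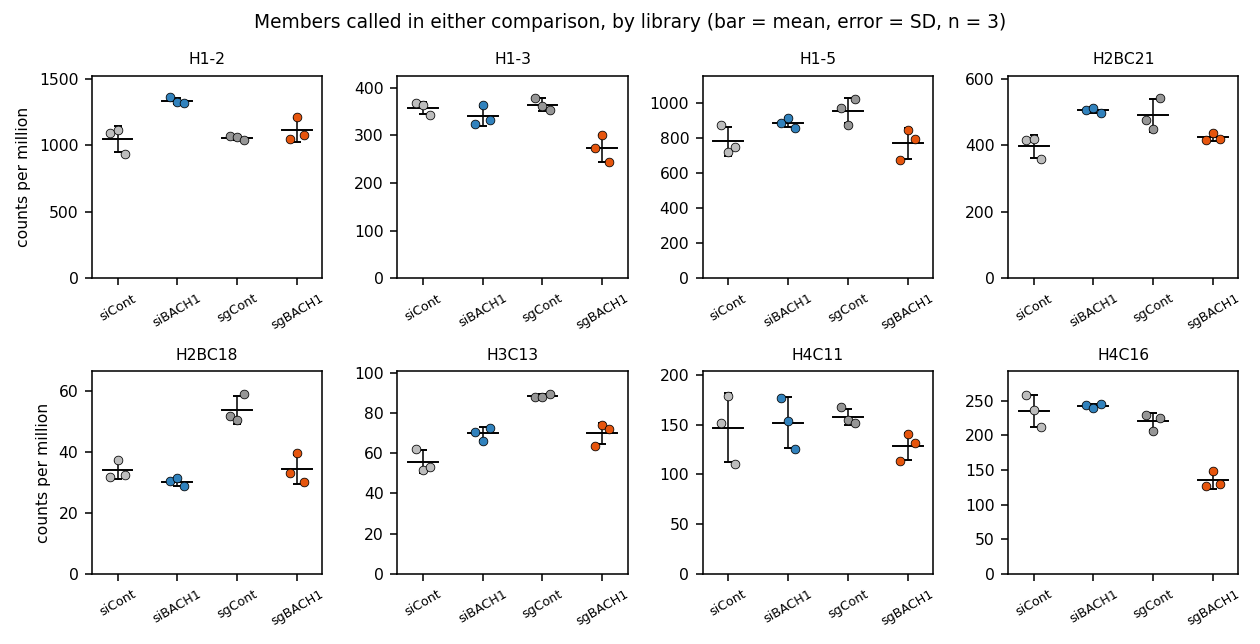
CPM (y axes, linear from 0) in each library of the 4 groups for 8 members called in at least 1 comparison; points are libraries, bars the mean and error bars the SD (n = 3). In the H4C16 panel the sgBACH1 libraries at 126 to 148 CPM sit below all others, and in the H2BC18 panel sgCont sits above the rest.

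Whether the siRNA and the guide gave different responses was tested in 1 fit of all 12 libraries, as the sgBACH1 minus sgCont change less the siBACH1 minus siCont change. The experiments share no control libraries. For 6 members the knockout response was lower, for none was it higher, and 24 did not pass. Over 15644 genes 13.0% were higher in the knockout and 10.6% lower. The 6 were H4C16 (-0.75 ± 0.12, edgeR adjusted p = 0.000219), H3C13 (-0.67 ± 0.13, edgeR adjusted p = 0.0014), H2BC21 (-0.55 ± 0.11, edgeR adjusted p = 0.00179), H1-5 (-0.50 ± 0.13, edgeR adjusted p = 0.00951), H2BC18 (-0.48, edgeR adjusted p = 0.0473) and H1-3 (-0.34, edgeR adjusted p = 0.0371), all on the log2 scale. H3C13 and H2BC21 were called in opposite directions in the experiments, up in siBACH1 and down in sgBACH1. The differences of H4C16, H3C13, H2BC21 and H1-5 held under all 21 alternative settings, while that of H1-3 was lost under 7 and that of H2BC18 under 12. Leaving out siCont replicate 2 raised the number of lower members to 12. The genes called over the whole table, in either direction, went from 3687 of 15644 to 3990 of 16309 with the same change.

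Control levels also differed between the experiments. H2AC20 averaged 390.3 ± 97.2 CPM in siCont and 254 ± 6.81 in sgCont, H4C3 427 ± 59.1 and 336 ± 23.9, and H3C13 55.7 ± 5.61 and 88.5 ± 0.876. Transfection, viral infection with selection, and separate preparation cannot be told apart as sources of such gaps.

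Summed by family, H1 was the one family whose siBACH1 libraries all lay above siCont, at 3234, 3267 and 3133 CPM against 2920, 2837 and 2568, which is 15.7% higher on the means. H2A, H2B, H3 and H4 sums overlapped, with changes from -1.6% to 2.0%. Without siCont replicate 2 the changes were 17% for H1, 17.5% for H2A, 11.9% for H2B, 2.3% for H3 and 4.1% for H4. In the knockout the H4 sum was 765, 851 and 802 CPM in sgBACH1 and 946, 934 and 928 in sgCont, a change of -13.9% with no overlap, and H4C16 is part of that sum. The H3 sum was 626, 622 and 577 CPM against 660.0, 661 and 703, a change of -9.8% with no overlap. The H1, H2B and H2A sums overlapped, at -10.1%, -8.0% and -2.9%. Over all members the sums were 8809 ± 288 CPM in siBACH1, 8387 ± 1120 in siCont, 7651 ± 350 in sgBACH1 and 8384 ± 338 in sgCont (SD, n = 3), and both comparisons overlapped.

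**Figure D4:**
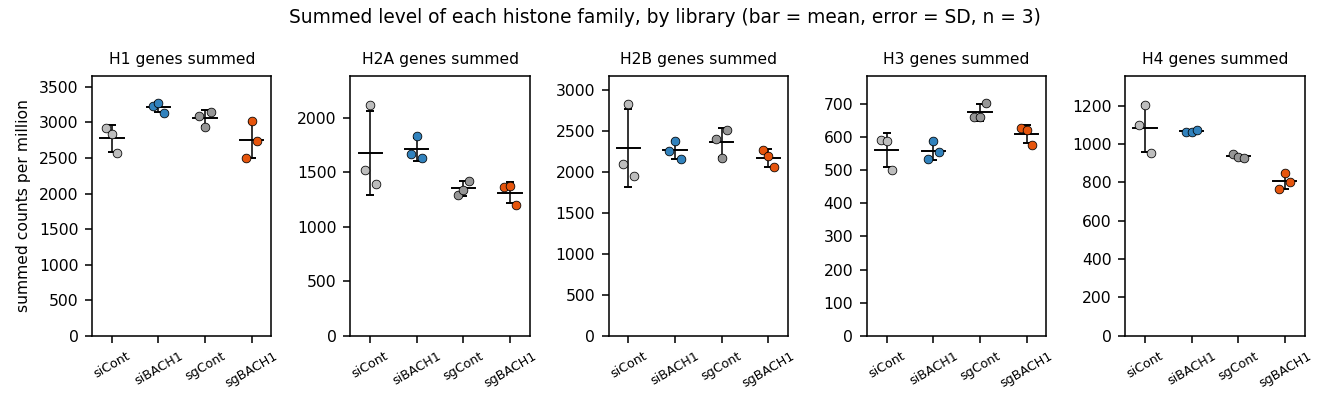
Summed CPM of the members of each family (y axes, linear from 0) in each library of the 4 groups; points are libraries, bars the mean and error bars the SD (n = 3). The H4 sum of the sgBACH1 libraries (765 to 851 CPM) lies below that of sgCont (928 to 946), and siCont replicate 2 is the high point of the H2A and H2B panels.

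Of the factors that make histone messages, SLBP had the largest called change, in siBACH1. SLBP read 23.0, 24.2 and 25.2 CPM in siBACH1 and 62.4, 55.5 and 59.9 in siCont, a log2 fold change of -1.30 ± 0.09 (edgeR adjusted p = 2.02e-05). In the guide experiment it read 58.4, 60.2 and 61.5 CPM in sgBACH1 and 56.4, 64.1 and 59.6 in sgCont, a log2 fold change of 0.00 (edgeR adjusted p = 0.997), and the difference of responses was 1.29 ± 0.13 (edgeR adjusted p = 2.39e-06). Over all 16 alternative settings, the fit without siCont replicate 2 among them, the siRNA change of SLBP lay between -1.35 and -1.27. No member was called lower in siBACH1, and 19 of 30 estimates were below 0, beside 49.5% of all genes. Without siCont replicate 2 the members' median moved from -0.042 to 0.095, beside 0.003 for all genes. With no filter on low counts 2 members were called lower (H2AC25 and H2BC26). These had the largest excess in siCont replicate 2, each with a ratio of 2.29. In the filtered fit without that library their log2 fold changes were 0.15 and 0.12 (edgeR adjusted p = 0.253 and 0.245). Without siCont replicate 2, 1 member was called lower (H3C15). With the GC and length offsets and the replicate block 1 was (H2AC21). The 3′ UTR of SLBP holds the 7-letter word AACATTA or ACATTAA. It was looked for because earlier results of these data had linked it to genes that fell in siBACH1. Of 11669 genes tested with an annotated 3′ UTR, 27.8% hold the word. Of those 31.1% fell in siBACH1, beside 8.8% of the genes without it, while in sgBACH1 the shares that fell were 13.0% and 14.7%. The word was chosen for that link, so its higher share in siBACH1 is no separate evidence for it. Genes with the word also had longer 3′ UTRs, with a median of 2967 bases against 1272. Its part in the fall of SLBP was not tested. Of 19 members with an annotated 3′ UTR, 1 (H2BC15) holds the word.

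NPAT, the coactivator of the histone locus body, read 54.6, 61.6 and 58.4 CPM in siBACH1 against 65.3, 56.7 and 58.7 in siCont, and 55.3, 54.9 and 53.2 in sgBACH1 against 59.1, 57.3 and 52.5 in sgCont. Its log2 fold change was -0.05 in both comparisons, with overlapping groups. All genes together gave 10.9% up and 13.0% down in siBACH1, and 11.3% up and 12.3% down in sgBACH1. Of 30 tested genes for histone message transcription, processing and decay, 4 rose and 3 fell in siBACH1. The risers included LSM11, a protein of the U7 particle (9.88 ± 1.97 to 19.3 ± 2.53 CPM, log2 fold change 0.96, edgeR adjusted p = 0.00402), CPSF1, a subunit of the cleavage complex (0.54), and the cyclin-dependent kinase CDK2 (0.52), which phosphorylates NPAT. In sgBACH1 1 rose, the cleavage factor CSTF2 (log2 fold change 0.90, edgeR adjusted p = 4.99e-06), and 1 fell, CDK2 (-0.38, edgeR adjusted p = 0.0271). CDK2 was therefore called in opposite directions, with a difference of -0.91 (edgeR adjusted p = 0.000683).

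The replication-independent histones, made from ordinary polyadenylated messages throughout the cell cycle, gave 5 falls and no rise among 12 tested in siBACH1, with a median of -0.41 beside 0.005 for all genes. Of all genes 13.0% fell and 10.9% rose there. H2AZ1, a variant placed at promoters, read 218, 200.2 and 211 CPM against 376, 384 and 339, a log2 fold change of -0.81 ± 0.08 (edgeR adjusted p = 0.000124). H3-3B, which encodes H3.3, read 179, 185 and 192 CPM against 236, 272 and 242 (-0.44, edgeR adjusted p = 0.00472). H2AZ2 (-0.41) and H2AJ (-0.47) fell as well. For none of these 4 genes did the groups overlap. The calls of H2AZ1, H3-3B and H2AZ2 held under all 16 alternative settings, while that of H2AJ was lost under 5.

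In the knockout the replication-independent histones split. H3-3B rose from 176, 159 and 155 CPM in sgCont to 244, 233 and 241 in sgBACH1 (log2 fold change 0.55, edgeR adjusted p = 5.94e-06), and H2AZ2 rose by 0.27. H2AJ fell from 65.2 ± 1.25 to 40.2 ± 6.09 CPM (-0.70, edgeR adjusted p = 9.06e-05). H2AX, the damage-linked H2A variant that gives both kinds of message, read 212, 244 and 221 CPM against 256, 249 and 283 (-0.22, edgeR adjusted p = 0.0445), a call lost under 7 of 16 settings. H2AZ1 had a log2 fold change of -0.14 and did not pass. The response of 4 of the 12 was higher in the knockout than after the siRNA, among them H3-3B at 0.98, H2AZ2 at 0.68 and H2AZ1 at 0.67, and that of none was lower. The shares over all genes were 13.0% higher and 10.6% lower.

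**Figure D5:**
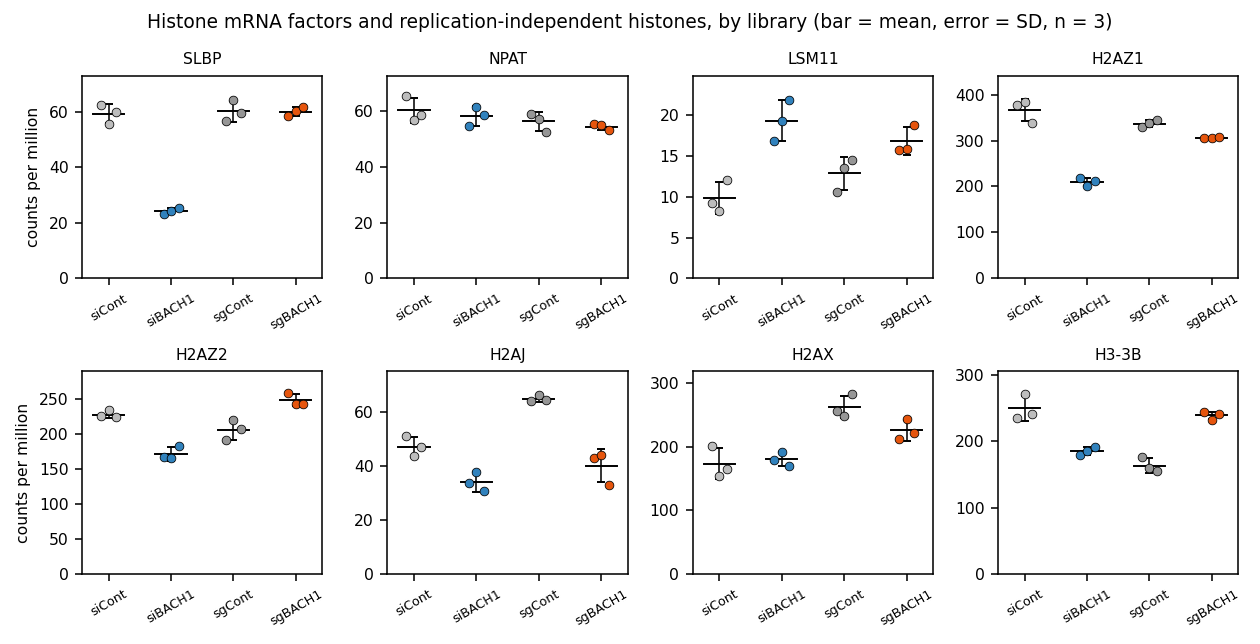
CPM (y axes, linear from 0) of SLBP, NPAT, LSM11 and 5 replication-independent histones in each library of the 4 groups; points are libraries, bars the mean and error bars the SD (n = 3). SLBP lies at 23.0 to 25.2 CPM in siBACH1 and at 55.5 or above in every other library, and H3-3B is low in siBACH1 and sgCont.

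Genes of S phase, which rise and fall with the histone messages in cycling cells, gave these counts. The background over all genes was 10.9% up and 13.0% down in siBACH1, and 11.3% up and 12.3% down in sgBACH1. Of 39 DNA replication genes, 9 rose and 2 fell in siBACH1, with a median of 0.16, and 6 rose and 3 fell in sgBACH1, with a median of 0.05. The summed level of these genes was 2859 CPM in siCont replicate 2, 3367 and 3409 in siCont replicates 1 and 3, and 3537 to 3602 in siBACH1. Without that library 14 rose and 4 fell in siBACH1, with a median of 0.08, beside 16.6% up and 17.3% down over all genes. The part of that library in these counts was not tested. In siBACH1 GINS1, a subunit of the replicative helicase, rose by 0.68 and the thymidine kinase TK1 by 0.54, while RRM2, a subunit of the enzyme that makes deoxyribonucleotides, fell by 0.55 (edgeR adjusted p of 0.00263, 0.00139 and 0.000917). In sgBACH1 the origin subunit ORC1 rose by 0.56 and the helicase subunit MCM5 by 0.38, and the polymerase POLE fell by 0.50 (edgeR adjusted p = 0.000108). Of 20 mitosis genes, 7 rose and 3 fell in siBACH1 and none rose and 3 fell in sgBACH1, PLK1 by 0.64 (edgeR adjusted p = 2.84e-07), TPX2 by 0.31 and HMMR by 0.30. The calls of PLK1 and TPX2 held under all 16 alternative settings, while the HMMR groups overlapped and its call was lost under 6, with a log2 fold change of -0.17 (edgeR adjusted p = 0.243) without sgCont replicate 2. The part of the cell cycle in the histone values was not tested.

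Of 18 histone chaperones, which carry histones to DNA, 1 rose and 2 fell in each comparison. These counts did not exceed the shares over all genes, 10.9% up and 13.0% down in siBACH1 and 11.3% and 12.3% in sgBACH1. The list's median was 0.24 in siBACH1, beside 0.005 for all genes, and -0.02 in sgBACH1, beside 0.006. Without siCont replicate 2, 4 rose and 2 fell in siBACH1, with a median of 0.15, beside 16.6% up and 17.3% down over all genes. The H3.3 chaperone subunit DAXX fell in both, by 0.93 in siBACH1 and by 0.43 in sgBACH1, and its partner ATRX rose in sgBACH1 from 77.1 ± 8.69 to 137 ± 3.81 CPM (log2 fold change 0.83, edgeR adjusted p = 2.2e-07) with a value of -0.08 in siBACH1. HAT1, which acetylates new H4, fell by 0.43 in siBACH1.

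Other RNAs without a poly(A) tail were read beside the members, since their recovery can vary with the preparation. Of 16 tested, none rose and 1 fell in siBACH1, RNU4ATAC, while in sgBACH1 5 rose and 2 fell, with a median of 0.22. The shares of all genes were 10.9% up and 13.0% down in siBACH1, and 11.3% up and 12.3% down in sgBACH1. The spliceosomal RNAs RNU5A-1, RNU6ATAC and RNU4ATAC rose there by 1.24, 1.19 and 1.13, and SCARNA7 fell by 0.64. The RNU5A-1 call was lost under 4 of 16 alternative settings and that of RNU6ATAC under 7, and under the GC and length offsets both had a log2 fold change of 0.74 and did not pass. RNU4ATAC passed under all 16, at 0.61 or more. The list's summed level was 19780 to 27140 CPM in the 6 siRNA libraries and 10010 to 12400 in the 6 guide libraries. The members' sums ran from 7360 to 9576 CPM in the siRNA libraries and from 7376 to 8719 in the guide libraries. In siCont replicate 2 the sum was 23030 CPM, between 27140 and 20680 in the other siCont libraries.

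By position, 22 members lie in the chromosome 6 cluster (chr6:25726132-27893106), 9 on chromosome 1 and 1 on chromosome 12. Genes that are no histones and lie between the first and last member of the chromosome 6 cluster gave 3 rises and 2 falls of 17 tested in siBACH1 (median -0.08), and 1 rise and no fall of 15 in sgBACH1 (median 0.04). The called members were spread over the clusters: of the 8 that fell in sgBACH1, H1-1, H1-3, H1-5 and H4C11 lie on chromosome 6, H2BC18, H2BC21 and H3C13 on chromosome 1 and H4C16 on chromosome 12.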

How the data were processed

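Total RNA depleted of ribosomal RNA was sequenced on an Ion Proton instrument, per the labels' protocols. The deposited values are raw counts per gene, 1 table per experiment. HTSeq 0.9.1, SAMtools and the hg19 build are named in the submitters' processing notes; for the aligner, the strand setting and reads with several matches, the sources used here give nothing. No column belonged to another series.

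Current symbols were matched by Ensembl identifier (51996 of 57820). The members and the 6 comparison lists were chosen with earlier results of these data known. Each experiment was fitted alone in edgeR 4.0.16 (R 4.3.3; TMM, minimum count 10, quasi-likelihood test, adjusted p below 0.05 over all genes), and the difference over all 12 libraries. The test was checked on simulated counts. All tested members could be named. Library values were given for the 3 members of highest level per family and for the called members, and in each list for the 4 called genes of largest change, with SLBP, NPAT, H2AZ1, H2AX and H3-3B whatever their values. Some genes that the rule would name are not reported here. Values of H2AC25 and H2BC26 were chosen after being seen.

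Exon lengths, GC content and coordinates came from GENCODE 29 (GRCh38), not the hg19 of the counts, so no read positions were used. Promoters came from RefSeq (GRCh38.p14). Alternatives were other scalings, filters and tools (DESeq2 1.42.0, limma 3.58.1), GC and length offsets, a replicate block, a wider symbol rule and each library left out. Deviations of treated and control libraries with the same replicate number correlated at -0.015 to 0.057 over genes. For different numbers the correlations were -0.063 to 0.028. These values were small, and the numbers were not used as pairs in the main fits.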

Additional observations from a re-analysis of the deposited data

Results flagged for a closer look

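The 9 results here concern genes whose responses to the siRNA and to the guide differed in the direct test of that difference (edgeR over 12 libraries, sgBACH1 minus sgCont less siBACH1 minus siCont, log2 scale). Of the members, the difference was -0.75 for H4C16, -0.67 for H3C13, -0.55 for H2BC21, -0.50 for H1-5, -0.48 for H2BC18 and -0.34 for H1-3, all lower in the knockout. H3C13 and H2BC21 were called up after the siRNA and down in the knockout, while H4C16, H2BC18, H1-3 and H1-5 passed the test in the knockout alone. Of 16 alternative settings, the siRNA call was lost under 7 for H3C13 and 3 for H2BC21, and the knockout call under 1 and 8. Of 21 settings, the difference was lost under 7 for H1-3 and 12 for H2BC18. Outside the members, the difference was 1.29 for SLBP, 0.98 for H3-3B and 0.67 for H2AZ1, all higher in the knockout. SLBP and H2AZ1 fell after the siRNA and did not pass the test in the knockout, whereas H3-3B fell after the siRNA and rose in the knockout.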

How the results depend on the processing

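Other scalings, a minimum count of 30, DESeq2, limma-voom and the wider symbol rule left the count of members called within 1.5 times the reported one in each comparison and direction. With offsets for GC content and length, 1 member rose in siBACH1 and 14 fell in sgBACH1; with those offsets and the replicate block together, 1 rose and 1 fell in siBACH1, 16 fell in sgBACH1 and 11 had a lower response in the knockout. With no filter, 2 members fell in siBACH1 and 2 had a higher response in the knockout, and the median over all genes moved to 0.115 in the knockout and 0.131 in the difference. The cause was not tested. Leaving out 1 library at a time, the members that rose in siBACH1 numbered 0 to 9 and those that fell 0 to 1. The members that fell in sgBACH1 numbered 4 to 12. Those with a lower or higher response in the knockout numbered 4 to 12 and 0 to 1. Genes called over the whole table in these fits numbered 2002 to 5121 for the siRNA, 2500 to 3586 for the knockout and 2960 to 3990 for the difference. The siRNA estimate of H2AC6 ran from -0.17 to 0.22 in those fits and passed the test at 0.22 (edgeR adjusted p = 0.00513) without siCont replicate 2, and that of HMMR turned to 0.28 (edgeR adjusted p = 0.0291) with the offsets. The replicate block alone, where numbers pair no cultures by any label, gave 2 rises and no fall in siBACH1, no rise and 9 falls in sgBACH1 and 6 lower responses, with 3196, 3530 and 3513 genes called over the whole tables.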
